A study of Mus musculus with 34 samples.

Results

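Gpc3, the gene for the cell-surface proteoglycan glypican-3, divided the high-LET radiation-induced hepatocellular carcinomas (HCC) of C3H mice into a pair of sets. Of 34 liver arrays in the series, 7 came from high-LET HCC. The 7 tumors were split by the non-normalized intensity of Gpc3 probe ILMN_2832979 at 500. Below it lay 3 tumors, called Gpc3-low HCC here, 1 from a mouse given 0.2 Gy and 2 from mice given 1 Gy. At or above it lay 4 tumors, called Gpc3-high HCC, 1 at 0.1 Gy, 2 at 0.2 Gy and 1 at 0.4 Gy. Because a measured value chose the sides, every difference between them is given as a description, with no test.

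All mice were male C3H/HeNCrl, a strain in which liver tumors arise with age, and were irradiated once over the whole body as young adults. High-LET radiation, whose particles deposit dense energy along their track, was given as iron or silicon ions, and low-LET radiation as gamma rays. The other 27 arrays, which the split did not use, were 3 low-LET HCC (2 Gy, 2 Gy and 3 Gy), 4 spontaneous HCC of unirradiated mice, and 20 livers without HCC. The livers came from 10 high-LET mice (1 Gy), 4 low-LET mice (3 to 7 Gy by the labels) and 6 sham-irradiated mice. The study's methods state gamma-ray doses of only 1 to 3 Gy, and this conflict is not settled. Each sample was bulk tissue diagnosed by histology, so fewer cells of a type and less RNA per cell cannot be told apart. By the study's dose table both 1 Gy tumors received silicon ions and the 0.1 and 0.4 Gy tumors iron ions, and the ion of the 0.2 Gy tumors is not settled. Dose, ion and side therefore cannot be told apart, although 0.2 Gy tumors lay on both sides. The study states iron ions for the high-LET livers, so as a baseline they differ in ion from both 1 Gy tumors. The numbers that serve as sample titles also separated the sides, the 0.2 Gy tumors included. Gpc3-low numbers lay near those of the sham and high-LET livers, and Gpc3-high numbers below those of all other samples. The labels do not say what these numbers stand for, so whatever goes with them cannot be told apart from side either.

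Glypican-3 is a heparan sulfate proteoglycan anchored to the outer face of the cell membrane. It is made by fetal liver, silenced in adult hepatocytes and made again by many HCC, where it serves as a diagnostic marker. Adult hepatocytes are known for bile acid synthesis, cytochrome P450 drug metabolism and, in male mice, a set of genes kept on by pulsatile growth hormone. HCC often loses part of this adult program and regains fetal genes.

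Signals are log2 intensities after background correction and quantile normalization, so a difference of 1 is a doubling. Gpc3-low values are listed in the order 0.2 Gy, 1 Gy on BeadChip 2 and 1 Gy on BeadChip 4, and Gpc3-high values in the order 0.1 Gy, 0.2 Gy on BeadChip 8, 0.2 Gy on BeadChip 4 and 0.4 Gy. A BeadChip is the glass slide that carries several arrays. Per array 20377 to 24284 of 45281 probes exceeded the background limit, and 14396 genes were kept, each by its brightest probe. The arrays of the Gpc3-low tumors correlated with each other across kept probes at 0.983 to 0.988, those of the Gpc3-high tumors at 0.935 to 0.976, and arrays of opposite sides at 0.913 to 0.960. With livers the correlation was 0.970 to 0.988 for Gpc3-low and 0.899 to 0.958 for Gpc3-high arrays. Probes within an array are not independent replicates, so these are descriptions.

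The reference promoters of Gpc3 and of 3 genes among the largest differences are shown because these genes carry some of the widest gaps between the sides. Each covers 250 bases before to 50 after the RefSeq start in the C57BL/6J build GRCm38.p6, not C3H sequence. They lie at chrX:52613925-52614224 (- strand), chr6:128581557-128581856 (- strand), chr19:40089429-40089728 (+ strand) and chr19:39992174-39992473 (+ strand). Capitals mark TATAAA, the TATA box core, in A2ml1, and the longest run that the neighboring Cyp2c50 and Cyp2c37 windows share, of 63 bases. Most of that run lies after the RefSeq start of each gene.
Gpc3: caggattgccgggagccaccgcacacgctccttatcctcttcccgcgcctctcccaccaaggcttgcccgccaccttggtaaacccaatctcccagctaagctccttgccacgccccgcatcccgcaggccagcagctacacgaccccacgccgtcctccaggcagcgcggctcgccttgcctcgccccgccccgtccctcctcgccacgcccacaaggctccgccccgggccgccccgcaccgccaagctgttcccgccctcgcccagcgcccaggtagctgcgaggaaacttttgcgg
A2ml1: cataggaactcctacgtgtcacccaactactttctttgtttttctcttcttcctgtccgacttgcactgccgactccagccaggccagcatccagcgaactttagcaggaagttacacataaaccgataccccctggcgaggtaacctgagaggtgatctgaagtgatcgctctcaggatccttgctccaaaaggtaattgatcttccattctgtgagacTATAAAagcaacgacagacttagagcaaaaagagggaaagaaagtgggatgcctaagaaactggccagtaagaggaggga
Cyp2c50: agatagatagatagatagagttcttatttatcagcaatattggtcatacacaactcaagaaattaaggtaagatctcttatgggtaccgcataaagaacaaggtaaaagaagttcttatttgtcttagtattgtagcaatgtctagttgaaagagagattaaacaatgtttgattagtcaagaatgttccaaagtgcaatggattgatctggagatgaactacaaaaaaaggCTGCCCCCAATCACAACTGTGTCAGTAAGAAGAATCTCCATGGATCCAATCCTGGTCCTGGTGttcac
Cyp2c37: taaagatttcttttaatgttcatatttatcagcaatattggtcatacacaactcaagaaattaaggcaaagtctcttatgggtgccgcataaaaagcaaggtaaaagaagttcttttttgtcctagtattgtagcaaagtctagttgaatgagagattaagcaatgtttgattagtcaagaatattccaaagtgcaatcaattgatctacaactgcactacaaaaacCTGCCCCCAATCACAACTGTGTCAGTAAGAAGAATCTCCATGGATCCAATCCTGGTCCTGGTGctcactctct
The Gpc3 window held 70.7% G and C and 30 CpG pairs, against medians of 52.3% and 7 over 22862 promoters. Both Cyp2c windows held 1 CpG pair. Of the 24 genes with the largest differences 14 had a single promoter entry. TATAAA was found on either strand of 14.8% of all promoters, 9.58% of the 167 promoters of genes lower in Gpc3-low HCC and 13.2% of the 159 of genes higher there. TGANTCA, the AP-1 motif, was found in 7.98%, 5.39% and 8.81%, and in none of the promoters shown. A match is only a run of letters and does not show binding.

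The Gpc3 intensity was 148, 151 and 209 in the Gpc3-low tumors and 3550, 2452, 1142 and 3060 in the Gpc3-high tumors. The values nearest the dividing line were 209 below it and 1142 above it, so no tumor lay close to 500. The 20 livers ranged from 92.8 to 220, and the 7 low-LET and spontaneous HCC from 3221 to 10136. The Gpc3-low tumors thus lay within the range of livers, though above most of them. After normalization livers had a median of 6.26 and a highest signal of 7.27. After normalization the Gpc3 signal was 6.68, 6.70 and 6.75 in the Gpc3-low tumors and 11.46, 11.93, 9.99 and 12.30 in the Gpc3-high tumors, a difference of -4.70 or 26.1-fold. The probe was above the background limit in all 7 tumors. These are the values that set the sides. A further Gpc3 probe, ILMN_2719973, on the same RNA had intensities of 127, 118 and 169 in Gpc3-low and 2501, 1489, 764 and 2093 in Gpc3-high tumors, so these 2 probes ordered the sides alike. Another Gpc3 probe, ILMN_1223663, lay near background and did not separate the sides, at 98.4, 99.2 and 109 in Gpc3-low and 108, 87.1, 99.4 and 87.4 in Gpc3-high tumors.

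**Figure D1:**
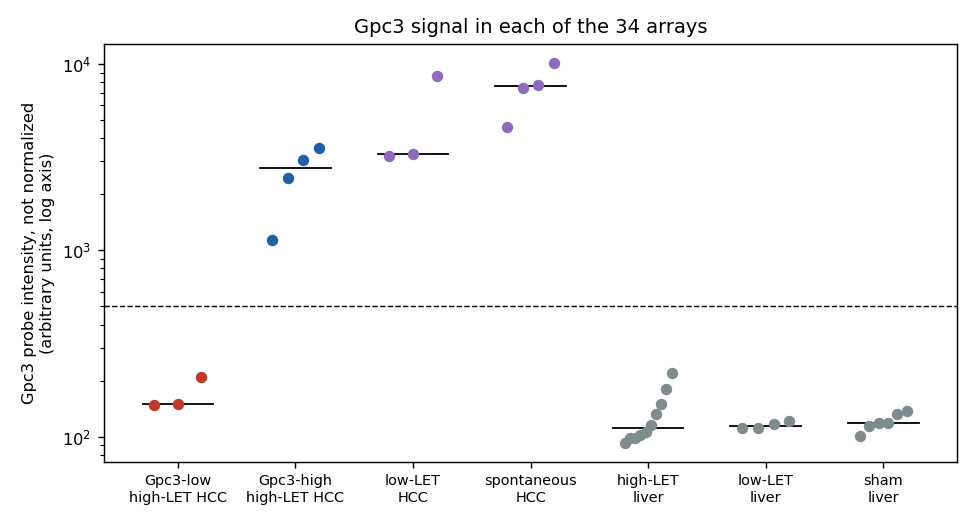
Non-normalized intensity of the Gpc3 probe on a log axis, 1 point per array, with the group median as a bar and the dividing value of 500 dashed. The 3 Gpc3-low tumors (148 to 209) sit among the livers (92.8 to 220), and the 4 Gpc3-high tumors start at 1142.

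Across all other genes the sides differed in both directions. A gene was counted where the 3 tumors of one side did not overlap the 4 of the other and the means differed at least 2-fold. By this count 269 genes, Gpc3 included, were lower in Gpc3-low HCC (1.87% of 14396) and 286 were higher (1.99%). The list counts below are to be read beside these shares. The median difference over all genes was -0.00257. The even split depended on the scaling: with arrays scaled to a common median instead of quantile normalized, 145 genes were lower and 723 higher, so that 83.3% of the counted genes were higher in place of 51.5%.

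**Figure D2:**
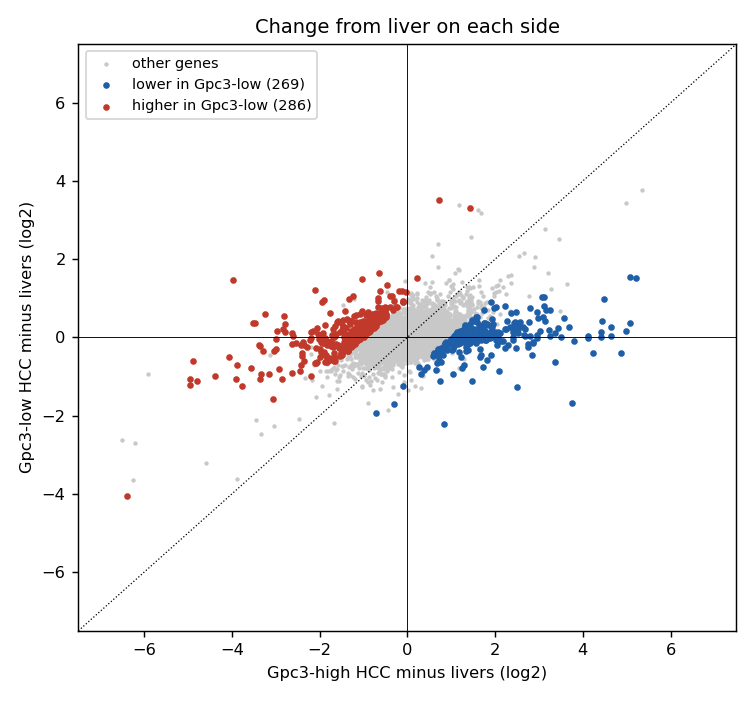
Change from livers (log2) in the Gpc3-high HCC on the horizontal axis and in the Gpc3-low HCC on the vertical axis, 1 point per gene, with the 269 lower genes in blue and the 286 higher genes in red. Points on the dotted line would have changed equally, and the colored points spread along the horizontal axis. Both axes use the same 20 livers.

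The largest fall was in Tff3, a secreted trefoil peptide of mucous epithelia, whose signal was 6.04, 7.61 and 6.76 in the Gpc3-low tumors and 12.63, 12.11, 11.997 and 12.23 in the Gpc3-high tumors. The difference of -5.44 was 43.3-fold. Livers had a median of 8.08, above every Gpc3-low tumor, and Gpc3-low HCC differed from livers by -1.69 ± 0.47 (SE, limma adjusted p = 0.0326), a call lost without the 0.2 Gy tumor (0.319), without the 1 Gy tumor on BeadChip 4 (0.12) with the sham livers alone as baseline (0.289) or with median scaling (0.102). Spink1, a trypsin inhibitor secreted by the pancreas and by many tumors, followed with 6.04, 6.62 and 6.18 in the Gpc3-low tumors and 10.91, 11.90, 12.87 and 10.46 in the Gpc3-high tumors. Its difference was -5.25, or 38.1-fold. Akr1c18, which inactivates progesterone, was at 6.03, 6.24 and 5.70 in the Gpc3-low tumors and 11.77, 11.68, 10.501 and 9.26 in the Gpc3-high tumors, a difference of -4.81. Tff3 and Spink1 were above background in 2 of the 3 Gpc3-low tumors and Akr1c18 in 1, so these sizes are limited by background. In each of these genes the lowest Gpc3-high tumor lay more than 3 log2 units above the highest Gpc3-low tumor.

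A2ml1, a protease inhibitor of the alpha-2-macroglobulin family whose TATAAA promoter is shown above, was the tightest of the large falls on the Gpc3-high side, at 8.11, 8.81 and 8.03 in the Gpc3-low tumors and 12.73, 12.87, 13.13 and 13.02 in the Gpc3-high tumors. Its means were 8.32 ± 0.43 (SD, n = 3) and 12.94 ± 0.17 (SD, n = 4). Cd63, a tetraspanin of late endosomes and exosomes, was similarly even, at 8.19, 8.92 and 7.95 in the Gpc3-low tumors and 12.10, 12.41, 12.70 and 12.20 in the Gpc3-high tumors, a difference of -4.000. Tspan8, another tetraspanin of epithelial tumors, differed by -4.30 and Igdcc4, an immunoglobulin-superfamily membrane protein, by -4.09, and both were above background in 2 of the 3 Gpc3-low tumors. The other 2 Igdcc4 probes differed by -0.24 and -0.72.

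Other large falls varied widely within the Gpc3-high side. Cyp17a1, the steroid 17-hydroxylase, was at 6.07, 6.28 and 6.62 in the Gpc3-low tumors and 10.99, 11.44, 7.44 and 13.90 in the Gpc3-high tumors, so 1 Gpc3-high tumor at 0.2 Gy lay far below the one at 0.4 Gy. Smox, the polyamine-degrading spermine oxidase, was at 6.59, 6.82 and 6.68 in the Gpc3-low tumors and 10.11, 10.22, 13.05 and 11.09 in the Gpc3-high tumors, and the same 0.2 Gy tumor was here the highest. Ly6d, a surface protein of squamous and lymphoid progenitor cells, differed by -4.37. Gldn, known from the nodes of myelinated nerve, was not above background in any Gpc3-low tumor or liver and was at least 15.5-fold higher in Gpc3-high HCC. That bound sets the Gpc3-high mean against, per Gpc3-low array, the higher of the lowest signal among probes above background and the probe's own signal.

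Among the rises, Cyp7a1, the rate-limiting enzyme of bile acid synthesis, led with 13.31, 12.80 and 13.05 in the Gpc3-low tumors and 7.66, 8.12, 6.16 and 8.47 in the Gpc3-high tumors. The difference of 5.45 was 43.7-fold. All 3 Gpc3-low tumors also exceeded the highest liver, at 12.39, but against livers the change of 1.47 ± 0.61 (SE) did not pass limma's test (adjusted p = 0.191). Sult2a8, a liver sulfotransferase of bile acids, was at 9.75, 11.25 and 11.55 in the Gpc3-low tumors and 7.24, 6.77, 6.43 and 5.87 in the Gpc3-high tumors, a difference of 4.27. Cyp7b1, the oxysterol hydroxylase of the alternative bile acid route, was at 12.15, 13.26 and 13.77 in the Gpc3-low tumors and 10.21, 9.37, 8.28 and 8.81 in the Gpc3-high tumors. Cyp8b1, which sets the cholic acid share, differed by 3.72.

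Drug-metabolizing P450 genes were among the same 12 rises. Cyp2c50 was at 13.12, 13.11 and 13.12 in the Gpc3-low tumors and 10.31, 10.78, 6.87 and 8.90 in the Gpc3-high tumors, and its neighbor Cyp2c37 at 13.66, 13.52 and 13.43 in the Gpc3-low tumors and 10.78, 11.27, 7.22 and 9.52 in the Gpc3-high tumors. The 0.2 Gy tumor on BeadChip 4 was the lowest in both. These paralogs are similar enough that their probes may share signal, so they count as uncertain separate measurements. A further probe of each differed by only 0.25 (Cyp2c50) and 0.33 (Cyp2c37). Cyp1a2, a pericentral P450, was at 12.67, 12.96 and 12.07 in the Gpc3-low tumors and 10.32, 11.36, 6.79 and 7.58 in the Gpc3-high tumors. Aox3, an aldehyde oxidase of liver, differed by 3.40, and Car3, a carbonic anhydrase abundant in male liver, by 3.67. The remaining large rises were Lrtm1 (3.83), Slc17a8 (3.34), a vesicular glutamate transporter, and Upp2 (3.31), a liver uridine phosphorylase.

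**Figure D3:**
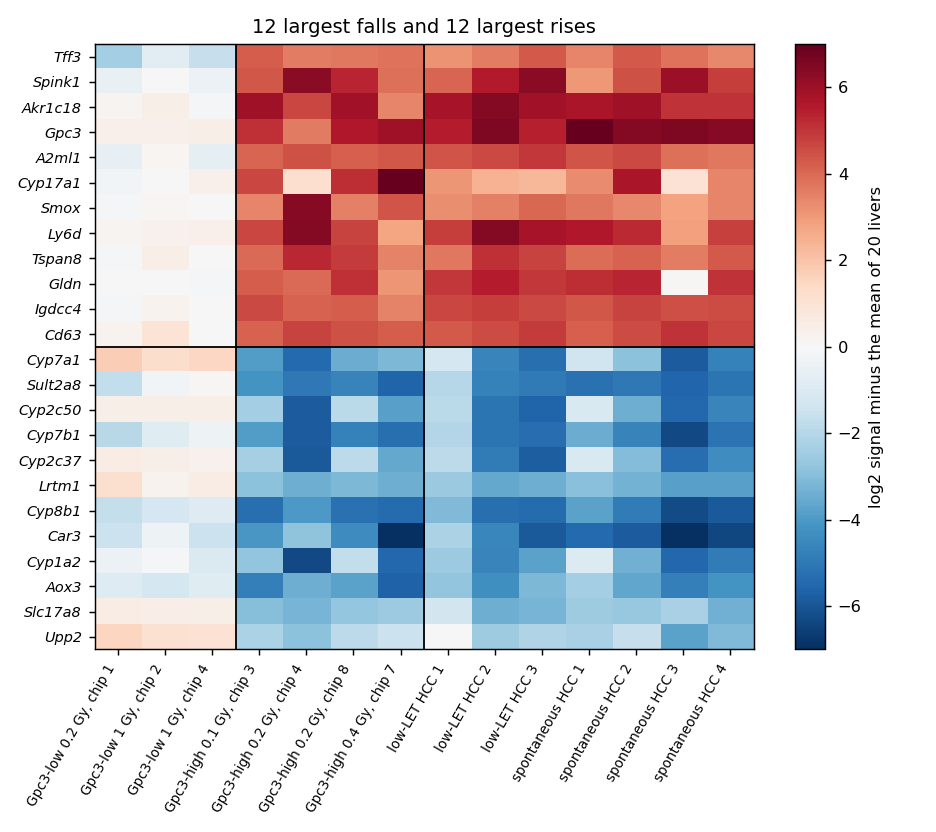
Log2 signal minus the mean of the 20 livers for the 12 largest falls (top, Gpc3 included) and 12 largest rises (bottom), in 3 Gpc3-low, 4 Gpc3-high, 3 low-LET and 4 spontaneous HCC from left to right. Gpc3-low columns are pale in most rows, whereas Gpc3-high and the other HCC are mostly dark. Exceptions among the falls are Gldn and Cyp17a1 in 1 spontaneous HCC and Cyp17a1 in the 0.2 Gy Gpc3-high tumor on BeadChip 4, and among the rises several pale cells of 1 low-LET and 1 spontaneous HCC.

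Oncofetal genes, known from fetal liver and HCC, were lower as counted in 6 of the 15 measured besides Gpc3, and higher in none, with a median of -0.83. Afp, alpha-fetoprotein, was at 5.83, 5.89 and 5.79 in the Gpc3-low tumors and 8.09, 8.20, 6.91 and 6.48 in the Gpc3-high tumors. It was not above background in any Gpc3-low tumor or liver and was at least 2.57-fold higher in Gpc3-high HCC. Of the 15, limma called 8 higher than livers in Gpc3-high, 9 in other HCC and none in Gpc3-low HCC. Of all genes 11.4%, 11.3% and 2.93% were called higher, so none of 15 in Gpc3-low HCC is near the share of all genes. Of 13 imprinted genes 1 was counted, as higher: Dcn, a matrix proteoglycan also on the stromal list (1.34, and 0.41 to 1.39 on its other 3 probes). Of the other proteoglycans and heparan sulfate enzymes none of 16 was counted, near the 1.87% (lower) and 1.99% (higher) of all genes. The largest difference there was that of Gpc1 (-1.52), a glypican of many tissues.

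Genes of the EGFR, ERK and AP-1 pathway, which include immediate early genes that growth factor or stress signals switch on within minutes, were lower in 7 of 20 and higher in none, with a median of -0.36. Egr1, a zinc-finger transcription factor, was at 8.30, 8.73 and 7.32 in the Gpc3-low tumors and 12.37, 11.07, 12.93 and 11.21 in the Gpc3-high tumors, and livers ranged from 7.39 to 11.38. Ier3, a stress-induced survival factor, was at 9.34, 8.77 and 7.96 in the Gpc3-low tumors and 11.60, 11.86, 13.11 and 12.31 in the Gpc3-high tumors. It was higher than livers on both sides, by 1.53 ± 0.27 (SE) in Gpc3-low (limma adjusted p = 0.00122) and by 5.06 ± 0.24 in Gpc3-high HCC (limma adjusted p = 4.75e-16). Dusp1, a phosphatase that turns off MAP kinases, differed by -2.35. Of the p53 and stress list 2 of 14 were lower: Cdkn1a, the p21 cell cycle inhibitor, at 6.64, 7.21 and 6.76 in the Gpc3-low tumors and 8.01, 10.11, 11.28 and 11.23 in the Gpc3-high tumors, and Atf3, a stress transcription factor (-1.98). Of 26 cell cycle genes none was counted (median -0.10), near the 1.87% (lower) and 1.99% (higher) of all genes. Differences were below 0 in 21 and above 0 in 5. Limma called 8 of the 26 higher than livers in Gpc3-high, 10 in other HCC and none in Gpc3-low HCC. Of all genes 11.4%, 11.3% and 2.93% were called higher, so none in Gpc3-low HCC is near that share. Aurkb, Ccne2 and Ube2c of this list were not above background in any Gpc3-low tumor. The largest difference in the cell cycle list was that of Ccnd1, cyclin D1. It was at 9.47, 10.42 and 8.39 in the Gpc3-low tumors and 12.43, 11.80, 11.18 and 8.69 in the Gpc3-high tumors, and these ranges overlapped.

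In the bile acid list 9 of 20 members were higher and none lower, with a median of 0.85. In the drug metabolism list 13 of 29 were higher and none lower, with a median of 1.35. Of 17 pericentral genes, many of them targets of Wnt signaling around the central vein, 4 were higher, among them Cyp2e1 at 14.86, 14.99 and 14.67 in the Gpc3-low tumors and 13.53, 13.92, 10.96 and 12.49 in the Gpc3-high tumors and the glutamate transporter Slc1a2 (2.03 and 1.82 on a pair of its 3 probes and -0.03 on the other). Of 15 secreted proteins that mark hepatocytes none was counted, near the 1.87% (lower) and 1.99% (higher) of all genes, with a median of 0.02. The largest difference there was that of Serpina1a, an alpha-1-antitrypsin (-1.02).

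Among male-biased genes 6 of 20 were higher in Gpc3-low than in Gpc3-high HCC (median 1.34), yet this was the list in which Gpc3-low HCC differed most often from livers. Limma called 12 of the 20 lower than livers in Gpc3-low HCC and 16 in Gpc3-high HCC, against 3.15% and 12.8% of all genes. Mup21, a major urinary protein, was at 8.76, 11.64 and 11.11 in the Gpc3-low tumors and 8.47, 8.65, 8.18 and 7.36 in the Gpc3-high tumors, and livers had a lowest, median and highest signal of 13.55, 14.69 and 14.98. No tumor of either side reached the livers. Mup3 was at 14.41, 14.72 and 14.27 in the Gpc3-low tumors and 12.70, 13.15, 11.22 and 10.03 in the Gpc3-high tumors and Susd4, a complement regulator, differed by 2.83. The major urinary proteins are near-identical copies, so probes cannot be assigned to 1 of them with certainty. Of 15 female-biased genes 2 were lower, Cyp17a1 and Cyp2a4, a steroid hydroxylase at 9.08, 7.64 and 6.22 in the Gpc3-low tumors and 11.81, 11.74, 11.04 and 10.75 in the Gpc3-high tumors. On average Cyp2a4 was still above livers in Gpc3-low HCC by 1.53 ± 0.28 (SE, limma adjusted p = 0.00141). The 1 Gy tumor on BeadChip 4, at 6.22, however lay within the livers (5.89 to 6.34). Over the 15 female-biased genes the median difference between the sides was -0.04. Limma called 7 of them higher than livers and none lower in Gpc3-low HCC. In Gpc3-high and in other HCC it called 9 higher and 1 lower. The shares of all genes called higher were 2.93%, 11.4% and 11.3%.

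Of the growth hormone and IGF list 2 of 15 were higher, Ghr, the growth hormone receptor (1.80), and Igfals, the carrier subunit of circulating IGF (2.26), and 1 was lower. That gene, Igfbp1, an IGF-binding protein, was not above background in Gpc3-low tumors and was at least 4.16-fold higher in Gpc3-high HCC. Of 17 hepatocyte transcription factors 2 were higher and none lower, both nuclear receptors: Nr1h4 (FXR), the bile acid receptor, at 12.10, 12.14 and 12.13 in the Gpc3-low tumors and 10.96, 11.09, 10.86 and 11.16 in the Gpc3-high tumors, and Nr1i3 (CAR), the receptor that induces drug-metabolizing genes. Of 5 Nr1i3 probes 3 differed between the sides by 1.96 to 2.09 and the others by 0.20 and 0.03. The Nr1i3 signal was 11.70, 11.60 and 10.80 in the Gpc3-low tumors and 8.88, 9.89, 8.71 and 9.63 in the Gpc3-high tumors, with livers at 10.29, 10.75 and 11.16 (lowest, median and highest). Against livers it was 0.67 ± 0.20 in Gpc3-low (SE, limma adjusted p = 0.0483) and -1.42 ± 0.18 in Gpc3-high HCC (adjusted p = 2.84e-07). The Gpc3-low call was lost without the 0.2 Gy tumor (adjusted p = 0.394), without the 1 Gy tumor on BeadChip 2 (0.294), and with either the high-LET livers (0.120) or the sham livers (0.237) alone as baseline.

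After the male-biased list, cholesterol synthesis was the list with the largest share called below livers in Gpc3-low HCC, 6 of 12 (3.15% of all genes) and none higher, with a median of -0.71 against livers. In Gpc3-high HCC 1 was called higher and 1 lower. Sqle, squalene epoxidase, was at 8.55, 10.25 and 10.92 in the Gpc3-low tumors and 11.90, 11.95, 11.92 and 11.36 in the Gpc3-high tumors. Srebf2, the master regulator of the pathway, was -0.76 ± 0.19 against livers in Gpc3-low HCC (SE, limma adjusted p = 0.0177), a call lost without the 0.2 Gy tumor (0.153), without the 1 Gy tumor on BeadChip 4 (0.111), with the sham livers alone as baseline (0.124) and with median scaling (0.417). A further Srebf2 probe differed between the sides by -0.29, against -1.02 for the one shown. The 3 Sqle probes differed between the sides by -1.87, -1.16 and 0.09, and the Sqle call against livers was lost without the 0.2 Gy tumor (0.447) and with median scaling (0.167). Glycolysis genes were lower in 3 of 16 (median -0.59): Aldoa (-1.62), an aldolase, Slc2a1 (-1.58), the GLUT1 glucose transporter, and Pfkl (-1.10, but -0.13 on a further probe), liver phosphofructokinase. Of lipid droplet and lipogenic genes 2 of 22 were lower, Cidea (-2.09) and Cidec, both proteins of lipid droplets. Cidec was not above background in any Gpc3-low tumor and was at least 2.34-fold higher in Gpc3-high HCC.

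**Figure D4:**
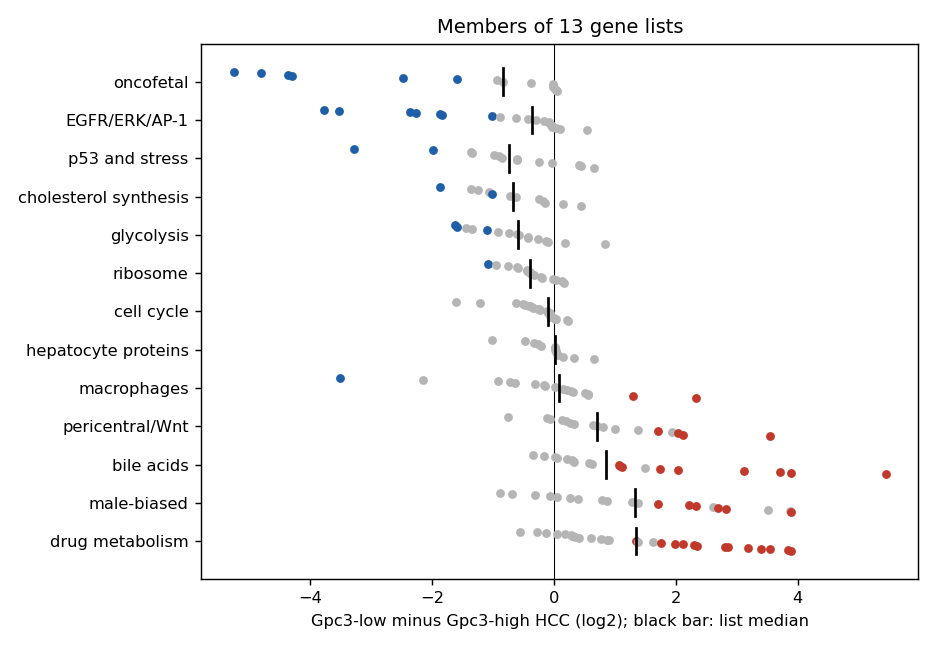
Gpc3-low minus Gpc3-high HCC (log2) for the members of 13 lists, without Gpc3, 1 point per gene, with counted genes in blue (lower) or red (higher), others in gray and the list median as a black bar. Red points cluster in the drug metabolism, bile acid, male-biased and pericentral lists and blue points in the oncofetal and EGFR/ERK/AP-1 lists.

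Markers of other cell types were read across their whole lists. Summed linear signals of 18 macrophage genes were 13380 to 15260 in Gpc3-low tumors, 7870 to 46740 in Gpc3-high tumors and 4470 to 12320 in livers. Limma called 9 of the 18 higher than livers and none lower in Gpc3-low HCC. It called 10 higher and 1 lower in Gpc3-high and 8 higher and 1 lower in other HCC. The shares of all genes called higher were 2.93%, 11.4% and 11.3%. Between the sides the macrophage list had a median difference of 0.09, with 8 members below 0 and 10 above, and 15 were not counted. Within that list, Clec4f and Vsig4, markers of resident Kupffer cells, were higher in Gpc3-low HCC. Clec4f was at 10.88, 10.998 and 10.63 in the Gpc3-low tumors and 8.08, 8.97, 7.21 and 9.75 in the Gpc3-high tumors, and its further probe differed by 0.85. Vsig4 was at 11.30, 11.07 and 10.95 in the Gpc3-low tumors and 8.53, 10.38, 9.41 and 10.93 in the Gpc3-high tumors, with the lowest Gpc3-low value almost level with the highest Gpc3-high value. Cd14, a lipopolysaccharide co-receptor, was lower, at 7.27, 8.07 and 8.25 in the Gpc3-low tumors and 9.85, 10.11, 14.18 and 11.35 in the Gpc3-high tumors. Neutrophil genes, 11 in number, summed to 1064 to 1802 in Gpc3-low and 1083 to 39100 in Gpc3-high tumors, and 1, Cxcr2, was not above background in any Gpc3-low tumor. S100a8, a neutrophil calcium-binding protein, was at 8.26, 9.10 and 9.42 in the Gpc3-low tumors and 8.27, 9.15, 14.30 and 10.81 in the Gpc3-high tumors, so the 0.2 Gy tumor on BeadChip 4 stood far above the rest. The part of these cells in the differences was not tested. None of 14 T and NK cell genes or 5 B and plasma cell genes was counted, near the 1.87% (lower) and 1.99% (higher) of all genes. Of 17 endothelial genes 2 were lower, Esm1 (-2.86), a tip-cell proteoglycan, and Vwf (-1.33), whose Gpc3-high values were 7.83, 7.58, 7.59 and 10.25. Of 17 stellate and matrix genes 1 was lower, Acta2, smooth muscle actin (-2.47, and -0.53 to -1.21 on its other 3 probes), and 3 were higher, among them Lrat (1.84), the vitamin A storing enzyme of quiescent stellate cells. Of 8 bile duct genes 1 was lower, Krt23 (-2.99), a keratin also made by HCC.

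The arrays that the split did not use gave a comparison independent of the choice of sides, although all arrays were normalized together. A call here means a Benjamini-Hochberg adjusted p below 0.1 together with a change of over 1.3-fold. In a limma fit on those 27 arrays 1626 genes (11.3%) were called higher and 1514 (10.5%) lower in low-LET and spontaneous HCC than in livers, 21.8% in all. Of the 269 genes lower in Gpc3-low HCC 255 (94.8%) were called higher in these other HCC, 1 was called lower and 13 were not called. Of the 286 genes higher in Gpc3-low HCC 251 (87.8%) were called lower in other HCC, 2 were called higher and 33 were not called. With median scaling the share of higher genes called lower in other HCC was smaller, as the counts under processing below show. The genes by which the sides differed were thus mostly genes by which other HCC differed from liver.

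The place of each tumor sample between livers and other HCC was measured over 769 genes, 454 up and 315 down. These were called in other HCC with at least a 2-fold change. For each gene the tumor's distance from the liver mean was divided by that of other HCC. The median share was 11.3%, 20.7% and 8.07% in the Gpc3-low tumors and 92.4%, 88.5%, 104% and 85.3% in the Gpc3-high tumors, that is 13.4 ± 6.54% (SD, n = 3) and 92.5 ± 7.96% (SD, n = 4). Genes that rise in other HCC were held at 5.29 to 18.4% on the Gpc3-low side and genes that fall at 13.3 to 22.6%. On the mean of the Gpc3-low tumors 308 of the 454 rising genes held under 25% of the change, 118 held 25 to 75% and 28 held over 75%. Of the 315 falling genes these counts were 180, 113 and 22. The sides were chosen by one of these genes, so the shares are descriptive. Liver tissue within a bulk tumor sample cannot be told apart here from tumor cells with liver-like signals, and its part was not tested.

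**Figure D5:**
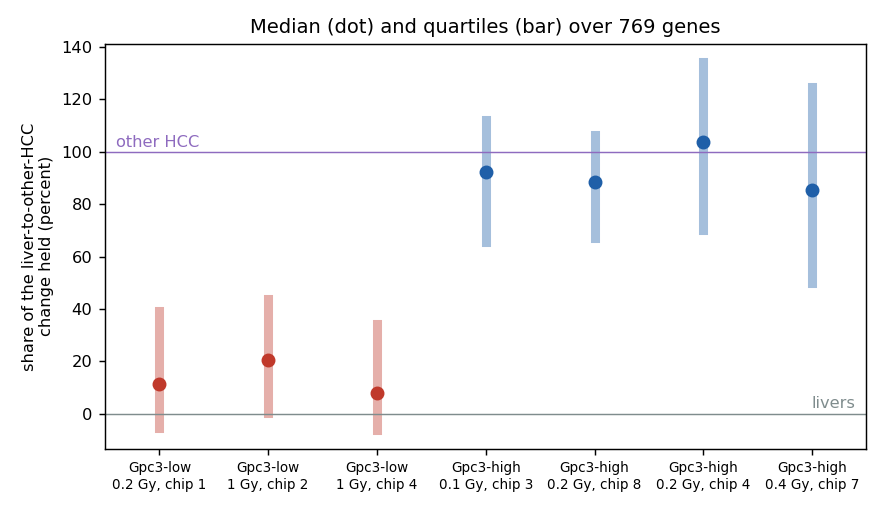
Share of the liver-to-other-HCC change held by each high-LET tumor, in percent, as the median (dot) and quartiles (bar) over 769 genes, with 0 at the liver mean and 100 at the mean of low-LET and spontaneous HCC. Gpc3-low medians lie at 8.07 to 20.7% and Gpc3-high medians at 85.3 to 104%.

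Gpc3-low tumors were nevertheless not equal to livers. Limma called 422 genes higher (2.93%) and 453 lower (3.15%) than the 20 livers, against 1648 higher (11.4%) and 1841 lower (12.8%) for Gpc3-high HCC. The sides differ in number of tumors and share their livers, so the counts were not compared by a test. Because Gpc3 chose the sides, genes that go with Gpc3 lie near livers in Gpc3-low HCC by that choice. In Gpc3-high HCC such genes lie away from livers by the same choice. A low count is therefore no evidence of likeness to liver, and every p-value of a side against livers carries this limit. The Gpc3-low count of 875 (6.08%, against 24.2% in Gpc3-high HCC) rested on its 0.2 Gy tumor more than on any other: it was 295 without that tumor, 521 without the 1 Gy tumor on BeadChip 2 and 703 without the one on BeadChip 4. With median scaling 1123 genes were higher and 55 lower in Gpc3-low HCC.

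Among genes called alike in Gpc3-low, Gpc3-high and other HCC, those with the smallest adjusted p in Gpc3-low HCC included several male-biased genes. Mup21 changed by -4.05 ± 0.35 (SE, limma adjusted p = 2.46e-08) in Gpc3-low, and its change was -6.39 in Gpc3-high and -4.96 in other HCC. Elovl3, a fatty acid elongase of male liver, was at 5.93, 6.36 and 6.33 in the Gpc3-low tumors and 5.98, 5.90, 5.96 and 5.93 in the Gpc3-high tumors, with livers at 7.87, 9.89 and 10.81. It changed by -3.62, -3.88 and -3.93 in Gpc3-low, Gpc3-high and other HCC, but was not above background in any Gpc3-high or other HCC, nor was Cyp4a12b in Gpc3-high HCC, so those sizes are limited by background. Cyp4a12b, a male P450, changed by -2.08, -2.48 and -2.42 and Mup20, the pheromone darcin, by -3.20, -4.59 and -4.28. Sphk2, a sphingosine kinase, changed by -1.22, -0.86 and -0.95. Flot1, a membrane raft protein, rose by 1.07, 0.93 and 0.71, Gbp2, an interferon-induced GTPase, by 1.42, 0.56 and 0.57, and Acot3, a peroxisomal thioesterase, by 3.38, 1.17 and 1.10. In Gpc3-high HCC the Acot3 call was lost without the 0.1 Gy tumor (0.227) or the 0.2 Gy tumor on BeadChip 8 (0.155), and the Gbp2 call with median scaling (0.107) or BeadChip as a block (0.111). Acot3 reached 12.004 in the 0.2 Gy Gpc3-low tumor and stayed at or below 8.87 in the other 6 tumors.

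A further set was called in Gpc3-low HCC and in neither Gpc3-high nor other HCC, which does not show that the changes differ. Cyp2c39, a further Cyp2c paralog whose probe may share signal, had the largest change, 3.52 ± 0.55 (SE, limma adjusted p = 0.000354). Its signal was 11.505, 10.69 and 10.13 in the Gpc3-low tumors and 7.69, 8.95, 6.10 and 9.11 in the Gpc3-high tumors, with livers at 6.15, 7.21 and 8.59. Cyp4a14, a PPAR-alpha target, changed by 2.39 ± 0.51 (limma adjusted p = 0.00584). It was at 8.92, 9.87 and 6.32 in the Gpc3-low tumors, the last of them within the livers (up to 7.49), and the call was lost without the 1 Gy tumor on BeadChip 2 (0.147). Tgfbi, a matrix protein induced by TGF-beta, was at 10.74, 11.14 and 10.85 in Gpc3-low tumors and rose by 1.40 (limma adjusted p = 0.000399). Vsig4 rose by 1.51 and Socs2, a feedback inhibitor of growth hormone signaling, by 1.79, both calls lost when any 1 of the 3 tumors was left out (adjusted p = 0.128 to 0.26 and 0.11 to 0.327), and the Socs2 call also with the sham livers alone (0.268). Cela1, an elastase, fell by 1.70, Dnaic1, an axonemal dynein chain, by 1.85 and Mvd, of the mevalonate pathway, by 1.45 on the log2 scale. The Dnaic1 and Mvd calls were lost without the 0.2 Gy tumor, at adjusted p of 0.296 and 0.133, and the Mvd call also with the sham livers alone as baseline (0.161) and with median scaling (0.107).

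Differing genes lay on every chromosome measured. Per autosome and X 0.887 to 2.66% of genes were lower and 0.843 to 3.28% higher, and the median difference ranged from -0.0325 to 0.0207. On X, where Gpc3 lies, 9 of 477 genes were lower and 5 higher. BeadChip 4 carried 1 tumor of each side. Between these 2 arrays the lower genes had a median difference of -1.93 (-1.49 over all 7 tumors), the higher genes 1.56 (1.39) and all genes 0.0323. The direction in that pair was fixed by the choice of non-overlapping genes, so it is no check of that direction.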

How the data were processed

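The deposited non-normalized values are linear intensities that the authors exported from GenomicStudio with background included. The authors then subtracted background with the MBCB method and quantile normalized; those deposited values are on the log2 scale and served as an alternative. Intensities were background corrected here with limma's normexp (offset 50), quantile normalized over 34 arrays and put on the log2 scale. The lower flank of each array's log2 signals, mirrored about their mode, gave an SD, and the background limit lay 1.645 such SD over the mode. Probes above it on at least 3 arrays were kept (29418 of 45281). Of all probes 34885 had 1 gene symbol, 18 several and 10378 none in the platform annotation, and 34807 matched a RefSeq gene. The brightest probe stood for each gene. Each side was compared with the mean of the 3 liver groups in a limma fit of 7 group means, and the comparison of other HCC from a fit on the remaining 27 arrays. Benjamini-Hochberg adjustment ran over all kept probes, calls needed an adjusted p under 0.1 and a fold above 1.3, and genes were then counted. The labels do not say more about replicates than that each array is a separate sample, so p-values measure the spread between these samples. The number of arrays limits the precision. Tools were R 4.3.3, limma 3.58.1, data.table (version 1.17.8) and matplotlib 3.10.9. Recovery of known changes was tested on simulated data.

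The members and the 33 gene lists were chosen with earlier results of these data known. Named genes were Gpc3, the 12 largest falls and 12 largest rises among counted genes, up to 3 counted members with the largest difference from each list (or the 1 member with the largest difference where none was counted), the 8 genes called alike in Gpc3-low, Gpc3-high and other HCC with the smallest adjusted p in Gpc3-low HCC, and the 8 called in Gpc3-low HCC alone with the largest change. Of 90 named genes 34 had several kept probes, and in 2 of them, Slc1a2 and Sqle, a further probe differed in sign.

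Alternatives were the authors' values, no background correction, median scaling, a weaker and a stricter filter, BeadChip as a block, other fold limits, other liver baselines and leaving out single tumors.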

Additional observations from a re-analysis of the deposited data

Results flagged for a closer look

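In 3 of 91 values examined over the 4 Gpc3-high tumors, 1 tumor lay far from the other 3, its gap exceeding Dixon's critical value, and chance flags about 1 group in 20. Cyp8b1, the sterol 12-hydroxylase of bile acid synthesis, had a log2 signal of 10.04 in the 0.2 Gy tumor on BeadChip 4 against 8.65 to 8.81 in the others. Sqle was at 11.36 in the 0.4 Gy tumor against 11.90 to 11.95. Vwf, the clotting factor carrier of endothelium, was at 10.25 in the 0.4 Gy tumor against 7.58 to 7.83, so the Gpc3-high mean of Vwf rests largely on that tumor.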

How the results depend on the processing

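With the authors' normalized values 561 genes were lower and 673 higher, of which 506 were called higher and 521 lower in other HCC, and other HCC differed from livers in 5223 genes instead of 3140. With median scaling 145 were lower and 723 higher, of which 143 and 477 were called in the opposite direction in other HCC, and the share held by the Gpc3-high 0.2 Gy tumor on BeadChip 8 was 80.1%. Median scaling also left 38.1% of Gpc3-high calls higher, in place of 47.2%. At least 1.5-fold gave 557 lower and 667 higher genes, and at least 3-fold 126 and 109. Leaving out single high-LET tumors gave 257 to 334 lower genes, 282 to 348 higher genes, 295 to 1032 calls in Gpc3-low and 3056 to 3670 in Gpc3-high HCC. Without any single HCC of any group the overlaps with other HCC were 243 to 304 and 239 to 287, and 2903 to 3436 genes were called in other HCC without single low-LET or spontaneous HCC. The other 90 shares held moved by less than 1 SD of their side. No direction of a named gene reversed: 1157 values of the difference between sides moved by less than the spread within sides and 103 by more, and 90 of the calls of named genes against livers were lost, counting each gene under each alternative, and 2509 were not. Medians of the periportal, imprinted, lipid synthesis, interferon and bile duct lists changed sign under some settings. The oncofetal median of -0.83 was -2.36 with the authors' values and -0.23 with a weaker filter, and the pericentral median of 0.70 was 2.02 and 0.28. No paired analysis was possible because the labels give no replicate numbers that groups share. With 3 and 4 tumors, and with the sides set by a measured gene, no test compares them, and dim probes such as those of Afp, Gldn and Igfbp1 in Gpc3-low tumors give only bounds.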

Other observations

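Several other lists held few differing genes, as did all genes, of which 1.87% were counted lower and 1.99% higher. Of 17 ribosomal genes 1 was lower in Gpc3-low HCC, Rps3 (-1.08), with a list median of -0.39. Limma called 12 of the 17 higher than livers in Gpc3-high HCC and 1 in Gpc3-low HCC, against 11.4% and 2.93% of all genes. Of 26 acute phase genes 1 was higher, Hamp, the iron hormone hepcidin, at 13.21, 12.24 and 13.43 in the Gpc3-low tumors and 11.04, 12.15, 11.80 and 11.20 in the Gpc3-high tumors. Of 24 complement and clotting genes 2 were higher, the mannose-binding lectin Mbl1 (1.503) and the terminal complement component C9 (1.44, but 0.07 and 0.74 on its other 2 probes). Of 17 fatty acid oxidation genes none was counted, and the largest difference was that of Acaa1b (1.78), a peroxisomal thiolase.

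Of 18 genes of antigen presentation and interferon response limma called 5 higher than livers in Gpc3-low, 8 in Gpc3-high and 11 in other HCC, with median changes of 0.67, 0.44 and 0.48. Of all genes 2.93%, 11.4% and 11.3% were called higher. Gbp3, an interferon-induced GTPase, was at 8.55, 9.03 and 8.63 in the Gpc3-low tumors and 6.67, 7.39, 7.19 and 6.45 in the Gpc3-high tumors, with livers at 7.10, 7.52 and 8.18 (lowest, median and highest). It differed from livers by 1.18 ± 0.20 (SE, limma adjusted p = 0.000895) in Gpc3-low and by -0.63 ± 0.18 (limma adjusted p = 0.00807) in Gpc3-high HCC. Irf7, an interferon regulatory factor, was at 8.49, 9.26 and 8.43 in the Gpc3-low tumors and 8.39, 7.66, 7.91 and 6.91 in the Gpc3-high tumors and rose by 0.91 over livers in Gpc3-low HCC (limma adjusted p = 0.00911), a call lost without the 1 Gy tumor on BeadChip 2 (0.176). These were the 2 of the 18 genes counted as higher in Gpc3-low than in Gpc3-high HCC.

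Periportal genes went in both directions. Cdh1, E-cadherin, was at 6.32, 7.49 and 6.79 in the Gpc3-low tumors and 9.78, 9.49, 9.69 and 8.85 in the Gpc3-high tumors, with a change from livers of -1.12 in Gpc3-low (limma adjusted p = 0.00375) and 1.47 in Gpc3-high HCC (limma adjusted p = 1.26e-06). The Gpc3-low call was lost without the 0.2 Gy tumor (0.120), and a further Cdh1 probe differed between the sides by only -0.23, against -2.58. Cyp2f2, a periportal P450, was at 12.91, 12.75 and 13.65 in the Gpc3-low tumors and 10.34, 11.26, 10.65 and 10.92 in the Gpc3-high tumors, and Aldh1b1, a mitochondrial aldehyde dehydrogenase, differed by -1.99. Among glutathione and NRF2 target genes Gstm2 was higher (1.42) and Srxn1, sulfiredoxin, lower (-1.33).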
